A study of Mus musculus with 16 samples.

Results

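Cytokines and chemokines are secreted signalling proteins, and the 36 mouse genes described here comprise 26 such ligands and 10 receptors. They were chosen by gene symbol, and all 36 were found among the 56748 genes counted. RNA-Seq was done on TM4 cells, an established mouse line of Sertoli cell origin. Sertoli cells are the somatic cells that nurse developing sperm. All cells received 2.5 µg of a plasmid built on pcDNA3.1-HA by lipofection, and RNA was taken 24 h later. The plasmid had no insert (EV, 6 samples), carried gdf6Y of the killifish Nothobranchius furzeri (5 samples), or carried the mutant variant del9, which lacks 9 bases and therefore 3 amino acids of the prodomain (5 samples). The study states that sample 6 of gdf6Y and of del9 was excluded for lower sequencing quality. EV and del9 were both set as controls, and all 3 groups share the transfection itself, the cell line and the medium. Samples are numbered in the labels, and no label ties a number to a separate culture, so the spread between these samples may be technical. For members whose samples spread widely, the p-values of the main test (edgeR) do not measure that spread, as is shown for Ccl2 below.

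Chemokines attract leukocytes through receptors on those cells, and they are divided into CC, CXC and CX3C types by the spacing of their first cysteines. Interleukin-6 (IL-6) type cytokines signal through receptor complexes that share the subunit gp130 and pass the signal to JAK kinases and STAT factors. Interleukin-33 (IL-33) belongs to the interleukin-1 (IL-1) family and is a nuclear protein that acts as an alarm signal when released. Its receptor ST2, the product of Il1rl1, pairs with the accessory protein Il1rap and signals through NF-kappa B. In the testis, Sertoli cells and interstitial cells secrete several of these factors, among them Csf1, which supports macrophages.

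Between 21486850 and 26444903 reads per sample were counted on genes. Id1, a textbook target of BMP signals, had a normalized count of 1035 ± 38.3 (SD, n = 6) in EV, 1927 ± 87.6 (n = 5) in gdf6Y and 1235 ± 63.4 (n = 5) in del9 samples, and no read was counted on mouse Gdf6. Normalized counts are counts scaled by the TMM factors of edgeR to a common depth. Of 14 Sertoli cell markers, 6 had a mean of at least 10 reads, and Wt1 and Dmrt1 were at 0 in every sample. In EV (n = 6), Gata4 was at 831 ± 6.04, Kitl at 707 ± 19.6, Dhh at 91.9 ± 17.5, Sox9 at 43 ± 5.39 and Amh at 5.49 ± 1.41. Fshr was at 0.171 ± 0.418, and Cldn11 and Trf were at 0 there. Of 7 peritubular myoid and mesenchymal markers, 6 reached the same mean. Col1a1, the highest, stood at 52454 ± 1703 in EV, Acta2 at 4530 ± 83.1, Pdgfrb at 266 ± 27.1 and Myh11 at 0.678 ± 1.05. The markers therefore only partly bear out the Sertoli label. The 10 leukocyte markers summed to between 0 and 3.82 normalized counts per sample, with Itgam and Cd3e at 0 throughout. The library of gdf6Y sample 1 stood apart from the other gdf6Y samples, with a chi-square per degree of freedom of 7.6 to 11.5 against each of them, where the other pairs within groups lay between 1.41 and 6.48.

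Reads were counted on 35 of the 36 members, and 27 had a mean of at least 10 reads over the 16 samples. Levels between genes were compared as CPM per kb of exon, CPM being counts scaled to the depth of the library. In EV cells the CC chemokine Ccl5 was highest at 184 ± 31.5 CPM per kb (SD, n = 6), followed by Ccl7 at 162 ± 30.5 and Ccl2 at 123 ± 22.8. The ranges of these neighbours overlapped. Csf1 at 46.5 ± 1.09 and Il1rl1 at 44.5 ± 2.09 came next and overlapped as well, and neither reached the range of Ccl2. Cxcl10 followed at 32 ± 6.06, Il33 at 13.4 ± 1.06 and Il13ra1, a chain of the IL-13 receptor, at 13.2 ± 0.545. The shared subunit Il6st (gp130) was at 9.18 ± 0.263, and the lowest of the 27, Il18, at 0.177 ± 0.0382. Ccl25 was at 0.888 ± 0.05 CPM per kb, but 3 other annotated genes overlap it on the same strand and its annotated exons span 12537 bases, so its level is uncertain.

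**Figure D1:**
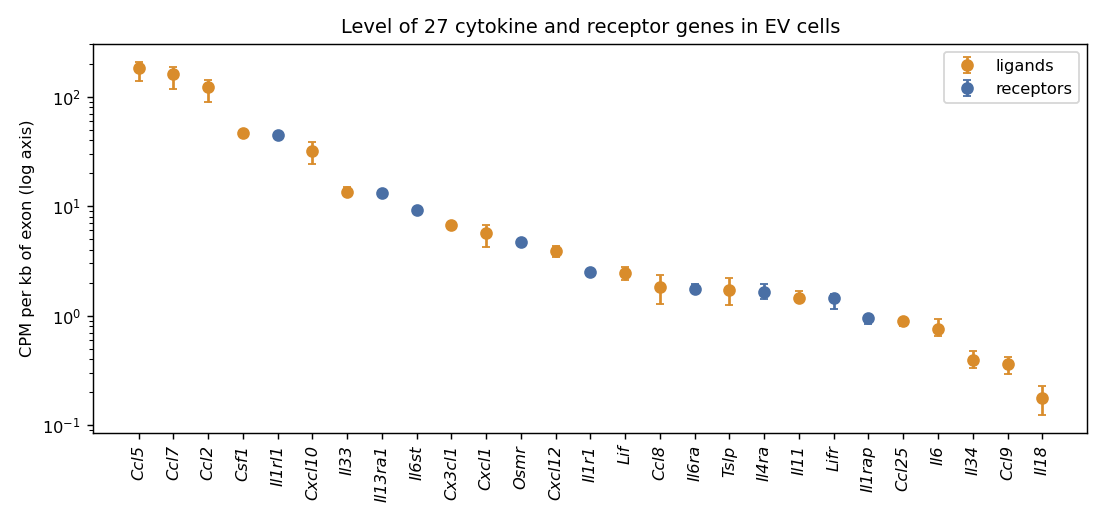
Level of the 27 members with a mean of at least 10 reads in EV cells, in CPM per kb of exon on a log axis. Points are means of 6 samples, bars run from the lowest to the highest sample, and colours separate ligands from receptors; Ccl5, Ccl7 and Ccl2 lie above all other members.

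The members that distinguished gdf6Y from del9 in the replicated test were few. Against EV, 2 of 34 members tested rose in gdf6Y cells (Cx3cl1 and Csf1), where 1.7% of all genes tested rose. Another 10 members fell, where 3.38% of all genes fell: Ccl2, Ccl5, Ccl7, Cxcl1, Cxcl10, Il33, Il1rl1, Il6st, Lifr and Osmr. In del9 cells, 5 of 35 members rose against EV (Il33, Il1rl1, Cx3cl1, Lif and Il6ra), where 4.82% of all genes rose. The 10 that fell there, where 4.43% of all genes fell, were Ccl2, Ccl5, Ccl7, Ccl8, Cxcl1, Cxcl10, Cxcl12, Il6st, Lifr and Osmr. Compared directly, 1 of 35 members was higher in gdf6Y than in del9 (Cxcl12, where 0.599% of all genes were higher) and 2 were lower (Il33 and Il1rl1, where 0.41% were lower). All of the called members had a mean of at least 10 reads. Of the 12584 genes at that level, 3.5% rose and 7.02% fell in gdf6Y against EV, 9.97% rose and 8.25% fell in del9 against EV, and 0.969% were higher and 0.834% lower in gdf6Y than in del9. A call here is an adjusted p below 0.05 from the quasi-likelihood test of edgeR, with p-values adjusted after Benjamini and Hochberg over all genes. In these bulk samples, fewer cells that express a gene and less RNA per cell cannot be told apart. The comparisons against EV share the EV samples, so their calls are not independent of each other.

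The median log2 fold change of the 27 members was -0.14 in gdf6Y against EV, -0.012 in gdf6Y against del9 and -0.056 in del9 against EV. Over the 12584 genes at the same read minimum it was 0.00084, -0.0042 and 0.0053. With libraries scaled by total counts, 2 members rose and 10 fell in del9 against EV, where 863 and 1492 of 26226 genes did. In gdf6Y against del9, 2 members were higher and 2 lower, where 179 and 89 of 25878 genes were.

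Calls on members whose samples spread widely depended on the test. Of the 12 calls in gdf6Y against EV, 3 (Cxcl1, Il1rl1 and Osmr) were kept in all 22 alternative fits, as were, in the 21 or 22 that gave a value, 1 of 3 in gdf6Y against del9 (Il1rl1) and 3 of 15 in del9 against EV (Ccl8, Il1rl1 and Osmr). DESeq2 called 6, 3 and 7 members in these comparisons. Over all genes it called 525 higher and 755 lower of 26316 in gdf6Y against EV. It called 48 and 33 of 25878 in gdf6Y against del9, and 1123 and 928 of 26226 in del9 against EV. Without gdf6Y sample 1, 6 members were called in gdf6Y against del9 (Ccl2, Ccl5 and Csf1 in addition), and 5 without gdf6Y sample 3 or 4 or del9 sample 2 or 5 (Ccl2 and Ccl5 in addition). Over all genes, 160 were higher and 197 lower of 25500 without gdf6Y sample 1. In the fits that called 5 members, 94 to 175 genes were higher and 66 to 108 lower. Because calls depended on the fit, each member below is also given an exact permutation test, unadjusted and without regard to sample numbers. It is two-sided, on the difference of mean log2 normalized counts, and 81 such tests were run. The smallest p that it allows is 0.00433 for 6 against 5 samples and 0.00794 for 5 against 5.

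**Figure D2:**
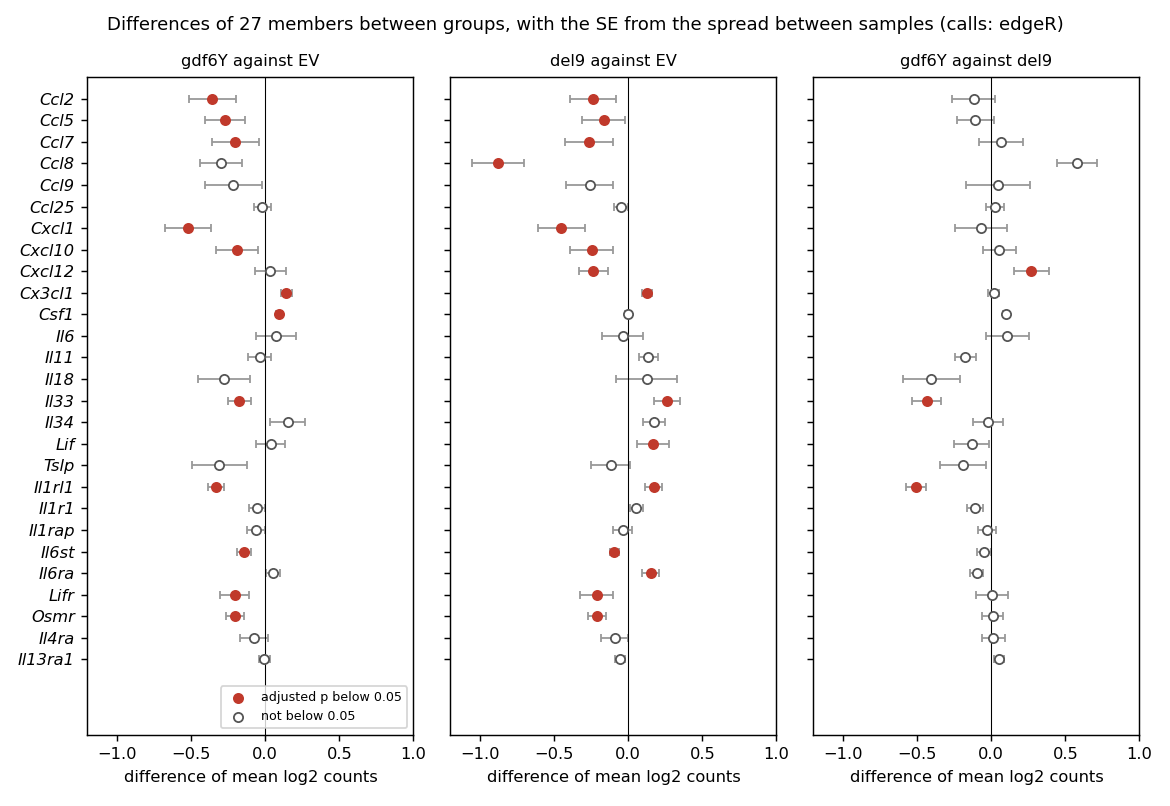
Difference of mean log2 normalized counts between groups for the 27 members, one panel per comparison. Bars are the standard error from the spread between samples, and filled points mark an adjusted p below 0.05 in edgeR; Il33 and Il1rl1 lie below 0 in gdf6Y against EV and above 0 in del9 against EV.

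Of the CC chemokines on chromosome 11, Ccl2, Ccl7 and Ccl5 were called lower than EV with both plasmids in edgeR, on samples that spread widely and overlapped, and Ccl8 fell in del9 cells. Ccl2 and Ccl7 recruit mainly monocytes, and Ccl5 recruits T cells and monocytes. For Ccl2, EV samples ranged from 2528 to 4009 normalized counts around a median of 3779. The gdf6Y samples 1 to 5 had 3077, 2208, 2840.3, 3008 and 2242, and the del9 samples 2862, 2483, 3278, 3445 and 2432. In all 3 groups the samples numbered 2 and 5 were the lowest, and the groups overlapped. Ccl2 was called lower in gdf6Y (log2 fold change -0.36, SE 0.03, adjusted p = 6.52e-21 in edgeR) and in del9 (-0.25, adjusted p = 7.56e-15). That SE is far smaller than the one from the spread between samples, 0.16, and the exact permutation p was 0.0519 and 0.165. The call was lost with DESeq2 and with robust empirical Bayes, and in del9 also with both filters on low counts, and the adjusted p rose to as much as 0.351 in gdf6Y and 0.48 in del9.

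Ccl7, which starts 8.252 kb downstream of the end of Ccl2, had EV samples between 2342 and 3732 with a median of 3501. Its gdf6Y samples 1 to 5 had 3076, 2339, 3022, 3196 and 2324, and its del9 samples 3031, 2189.9, 2692, 3175 and 2274. Here too samples 2 and 5 were lowest in each group, and the groups overlapped. The log2 fold change was -0.21 in gdf6Y (adjusted p = 3.32e-07 in edgeR) and -0.27 in del9 (1.25e-17), with exact permutation p of 0.26 and 0.13. With DESeq2, both filters on low counts or robust empirical Bayes neither call held, with an adjusted p of up to 0.556 and 0.435.

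For Ccl5, EV samples lay between 3538 and 5278 with a median of 5079.8. In gdf6Y, samples 1 to 5 had 4168, 3386, 4221, 4078 and 3256, and the del9 samples 4497, 3443, 4545, 4662 and 3487. Again samples 2 and 5 were lowest in each group. The fold changes were -0.28 in gdf6Y (adjusted p = 1.2e-14 in edgeR) and -0.17 in del9 (9.79e-08), with exact permutation p of 0.0866 and 0.312, and neither call held with DESeq2, both filters on low counts or robust empirical Bayes, with an adjusted p of up to 0.407 and 0.527. Between samples of the same number, Ccl2, Ccl5 and Ccl7 were lower than EV in all 5 pairs with either plasmid, although the numbers were not used as a pairing in the tests. Between gdf6Y and del9, Ccl2 differed by -0.11 (adjusted p = 0.0869 in edgeR) and Ccl5 by -0.10 (0.0871).

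Ccl8 was much less abundant than these. Its EV samples ran from 16.4 to 29.6 normalized counts with a median of 23.9, the gdf6Y samples 1 to 5 had 20.7, 18.6, 19.6, 15.9 and 18.2, and the del9 samples had 16.2, 11.5, 13.2, 12.3 and 9.7. Every del9 sample was below every EV sample, and del9 sample 1 was the only one of its group above a gdf6Y sample. The log2 fold change in del9 against EV was -0.87 (SE 0.24, adjusted p = 0.00434 in edgeR, exact permutation p = 0.00433), and DESeq2 gave no adjusted p for it. In gdf6Y against EV it was -0.31 (adjusted p = 0.542), and gdf6Y was 0.57 above del9 on the log2 scale without a call (adjusted p = 0.483, exact permutation p = 0.0159). Of the other CC chemokines, Ccl9 was at 27.9 ± 4.06, 24.5 ± 6.26 and 23.5 ± 4.9 and Ccl25 at 274 ± 15.5, 271 ± 20.1 and 266 ± 14.3 in EV, gdf6Y and del9, with no call in any comparison.

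**Figure D3:**
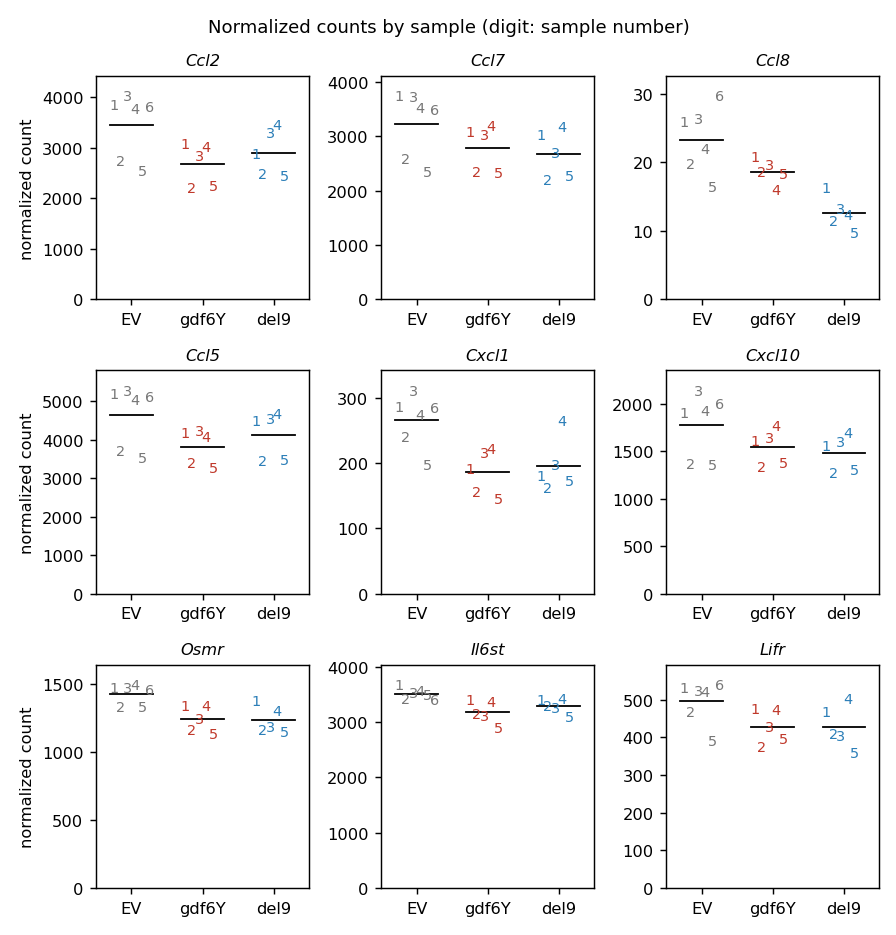
Normalized counts of chemokines and gp130 family receptors in every sample; the y axis starts at 0, each digit is the number of a sample, and black bars are group means (EV n = 6, gdf6Y and del9 n = 5). In Ccl2, Ccl7, Ccl5, Cxcl1, Cxcl10 and Osmr the samples numbered 2 and 5 are the lowest of their group in each of the 3 groups.

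Among CXC chemokines, Cxcl1, which attracts neutrophils, had the largest drop in gdf6Y cells of the called members. EV samples ranged from 198 to 311 normalized counts with a median of 279. Samples 1 to 5 of gdf6Y had 190.2, 156, 216, 221 and 145, and the del9 samples 179, 162, 197, 265 and 173. Most gdf6Y and del9 samples lay below all EV samples, and the groups overlapped. Cxcl1 fell by 0.51 on the log2 scale in gdf6Y cells (SE 0.07, adjusted p = 2.91e-10 in edgeR, exact permutation p = 0.0173), a call kept in all alternatives with an adjusted p of at most 0.0109. In del9 it fell by 0.44 (adjusted p = 8.64e-09, exact permutation p = 0.0216), lost with robust empirical Bayes (adjusted p = 0.0742). The direct difference between gdf6Y and del9 was -0.06 with an SE of 0.08 (adjusted p = 0.796).

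Cxcl10, an interferon-induced chemokine for activated T cells, was lower with both plasmids by a smaller amount. EV samples ranged from 1352 to 2136 with a median of 1910.3, gdf6Y samples 1 to 5 had 1603, 1328, 1638, 1759.8 and 1375, and del9 samples 1558, 1267, 1595, 1694 and 1306. Samples 2 and 5 were the lowest in each group and lay close together across the groups. The log2 fold change was -0.20 in gdf6Y (adjusted p = 5.36e-06 in edgeR, exact permutation p = 0.229) and -0.26 in del9 (adjusted p = 1.13e-12, exact permutation p = 0.126). With DESeq2, a filter on low counts or robust empirical Bayes neither call held, with an adjusted p of up to 0.556 and 0.409.

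Cxcl12 attracts cells that carry Cxcr4 and has a second receptor, Ackr3, that takes it up. EV samples ranged from 714 to 884 with a median of 814, gdf6Y samples 1 to 5 had 926, 681, 799.8, 941 and 798, and del9 samples 795, 667, 603, 758 and 614. The gdf6Y samples spread about the EV samples, with no call (0.04, adjusted p = 0.598 in edgeR), and most del9 samples lay below all EV samples. Cxcl12 fell in del9 against EV (-0.23, adjusted p = 3.62e-06 in edgeR, exact permutation p = 0.0476) and was higher in gdf6Y than in del9 (0.28, adjusted p = 5.28e-07, exact permutation p = 0.0397). The first call was lost with robust empirical Bayes (adjusted p = 0.18), and the second with DESeq2, with both filters on low counts and with robust empirical Bayes (adjusted p of up to 0.601). No read was counted on Cxcr4, whereas Ackr3 was at 100 ± 9.41 (SD, n = 6) in EV, 124 ± 18.8 (n = 5) in gdf6Y and 128 ± 13.6 (n = 5) in del9. Ackr3 rose against EV in both (0.31 with adjusted p = 0.0285 and 0.36 with adjusted p = 0.0027 in edgeR).

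Cx3cl1, a membrane-bound chemokine that can be shed, rose slightly with both plasmids. EV samples ranged from 634 to 705 with a median of 655, gdf6Y samples 1 to 5 had 692, 740.0, 736, 729.6 and 777, and del9 samples 693, 730.0, 762, 725 and 725. Apart from sample 1 of each group, the samples of both plasmids lay above all EV samples. The log2 fold change was 0.14 (adjusted p = 0.0208 in edgeR) and 0.13 (0.0291), each with an exact permutation p of 0.013. Both calls were lost with a correction for gene length, and the second with total counts. The first was also lost without EV sample 3 or 4 or gdf6Y sample 5 and the second without EV sample 1, 3, 4 or 6 or del9 sample 3 or 5, with adjusted p of up to 0.138 and 0.128.

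Promoter sequences from RefSeq (GRCm38.p6) were searched to show which members carry motifs of the pathways above. They hold 250 bases before and 50 after a start site, on 32 entries for 26 of the 36 members. Ccl2, Ccl5, Ccl7, Ccl11, Cxcl5, Cxcl16, Csf3, Il34, Tslp and Csf1r had none. A kappa B motif, the site of NF-kappa B, was found on either strand in the promoters of 10 members (Ccl9, Ccl20, Cxcl1, Cxcl2, Cxcl10, Csf1, Il6, Lif, Il1r1 and Il4ra) and in 8.46% of all 32851 promoters. The interferon-stimulated response element GAAANNGAAA was in those of 3 members (Cxcl10, Cxcl14 and Il1rap) and in 3.44% of all. The STAT site TTCNNNGAA was in that of Cxcl14 alone (8.3% of all), the AP-1 site TGANTCA in those of 6 members (7.81%), and the element GGCGCC bound by BMP Smads in those of 4, Ccl25, Cx3cl1, Cxcl12 and Lifr (11.9%). The STAT, AP-1 and GGCGCC motifs read the same on both strands, and overlapping kappa B matches were counted once per promoter. A match describes letters and not a bound site. The 250 bases before the start site are printed for Cxcl1 and Cxcl10, members with kappa B matches that were called lower with both plasmids in edgeR, and for Cxcl12, which was higher in gdf6Y than in del9. The motifs did not go with 1 direction. Of the other kappa B members, Csf1 rose in gdf6Y and Lif in del9 against EV, and the rest were not called. Of the others with GGCGCC, Cx3cl1 was called higher and Lifr lower with both plasmids, and Ccl25 was not called. Capitals mark kappa B matches in Cxcl1, kappa B matches and the interferon-stimulated response element in Cxcl10, and GGCGCC in Cxcl12.
Cxcl1, chr5:90890995-90891244, plus strand: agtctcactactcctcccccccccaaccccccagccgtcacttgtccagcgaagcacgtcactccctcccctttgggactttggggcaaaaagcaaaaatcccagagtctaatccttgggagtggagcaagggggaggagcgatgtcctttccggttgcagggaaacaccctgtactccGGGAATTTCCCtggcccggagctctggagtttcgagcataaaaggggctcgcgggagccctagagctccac
Cxcl10, chr5:92348890-92349139, minus strand: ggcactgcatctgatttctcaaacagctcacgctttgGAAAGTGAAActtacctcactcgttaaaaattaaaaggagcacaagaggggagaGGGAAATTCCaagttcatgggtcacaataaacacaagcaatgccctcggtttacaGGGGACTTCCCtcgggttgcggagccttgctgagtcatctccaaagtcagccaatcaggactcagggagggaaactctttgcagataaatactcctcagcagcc
Cxcl12, chr6:117168285-117168534, plus strand: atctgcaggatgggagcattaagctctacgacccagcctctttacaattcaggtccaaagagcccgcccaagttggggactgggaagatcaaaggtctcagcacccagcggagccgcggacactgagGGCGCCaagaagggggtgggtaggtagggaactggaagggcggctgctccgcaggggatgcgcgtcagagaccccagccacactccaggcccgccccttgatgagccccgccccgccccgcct

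In Cxcl1 the kappa B letters begin 71 bases before the start site, and in Cxcl10 matches begin 159 and 104 bases before it, with the interferon-stimulated response element at 213 bases.

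Csf1, the growth factor of macrophages and among the most abundant members, was higher in gdf6Y than in both controls. EV samples ranged from 6574 to 7021 normalized counts with a median of 6718, gdf6Y samples 1 to 5 had 7052, 7435, 7208, 7153 and 7078, and del9 samples 6633, 6990.3, 6582, 6704 and 6663. Every gdf6Y sample was above every EV and every del9 sample. The difference was small, 0.10 on the log2 scale against EV (SE 0.03, adjusted p = 0.0114 in edgeR, exact permutation p = 0.00433) and 0.10 against del9 (SE 0.03, adjusted p = 0.0666, exact permutation p = 0.00794). Without gdf6Y sample 2 the first adjusted p was 0.0539. Csf1, like Il1rl1 and Il18rap below, is a gene that the study picked from these libraries, so these directions are not independent evidence. Its receptor Csf1r had 2.15 to 9.95 normalized counts per sample, with no call, and Il34, the other ligand of that receptor, was at 37 ± 4.41, 41.2 ± 6.26 and 41.4 ± 2.02 in EV, gdf6Y and del9, also with no call.

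The IL-33 receptor gene Il1rl1 and the gene of its ligand, Il33, were the members called lower in gdf6Y than in del9, and both rose in del9 against EV. Il1rl1 EV samples ranged from 7199 to 8048 normalized counts with a median of 7429.8. The gdf6Y samples 1 to 5 had 5499.8, 6222, 6583, 6078 and 5673, and the del9 samples 7695, 8264, 9512, 8579 and 8628. Every gdf6Y sample was below every EV and every del9 sample, while del9 and EV samples overlapped with most del9 samples higher. Il1rl1 fell by 20.5% in gdf6Y against EV (log2 fold change -0.33, SE 0.03, adjusted p = 2.47e-27 in edgeR, exact permutation p = 0.00433) and was lower by 29.3% than in del9 (-0.50, SE 0.03, adjusted p = 5.09e-56, exact permutation p = 0.00794). It rose in del9 against EV (0.18, adjusted p = 1.57e-09, exact permutation p = 0.0173). All 3 calls were kept in every alternative, with adjusted p of at most 0.000134, 1.17e-05 and 0.00882. The gene gives a membrane-bound and a soluble receptor, which counts per gene do not separate.

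For Il33, EV samples ranged from 1868 to 2278 with a median of 1978, gdf6Y samples 1 to 5 had 1597, 1911, 2052, 1835 and 1682, and del9 samples 2043, 2481, 2822, 2439.7 and 2495. The gdf6Y samples lay below the del9 samples except that gdf6Y sample 3 just passed del9 sample 1. Il33 was lower by 25.8% in gdf6Y than in del9 (log2 fold change -0.43, SE 0.04, adjusted p = 2.97e-30 in edgeR, exact permutation p = 0.0159), a call lost with robust empirical Bayes (adjusted p = 0.144). It rose in del9 against EV by 0.27 (adjusted p = 2.66e-15, exact permutation p = 0.0173), lost there too (0.0975). In gdf6Y against EV it fell by 0.17 (adjusted p = 3.47e-05, exact permutation p = 0.0649), and this call did not hold with DESeq2, both filters on low counts or robust empirical Bayes, with an adjusted p of up to 0.368. The accessory chain Il1rap was at 361 ± 27, 345 ± 21 and 352 ± 25.6 and the IL-1 receptor Il1r1 at 419 ± 21, 404 ± 27.5 and 435 ± 21.7 in EV, gdf6Y and del9, with no call.

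**Figure D4:**
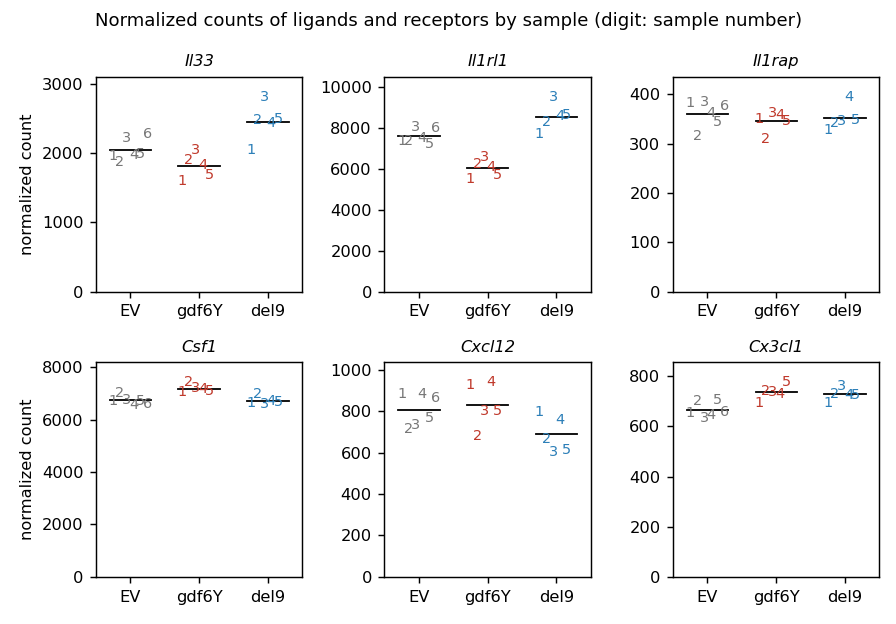
Normalized counts of Il33, its receptor chains Il1rl1 and Il1rap, Csf1, Cxcl12 and Cx3cl1 in every sample; the y axis starts at 0, each digit is the number of a sample, and black bars are group means (EV n = 6, gdf6Y and del9 n = 5). All gdf6Y samples of Il1rl1 lie below, and all those of Csf1 above, every EV and del9 sample.

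Of the other IL-1 family and related ligands, Il18, which drives interferon-gamma release, was at 13.1 ± 2.84 (SD, n = 6), 10.7 ± 1.93 (n = 5) and 14.3 ± 3.42 (n = 5) normalized counts in EV, gdf6Y and del9. Tslp, an epithelial cytokine, was at 56.5 ± 10.9, 45.8 ± 10.1 and 51.4 ± 4.6. Neither was called, and Crlf2, the gene of the Tslp receptor, was at 135 ± 5.21 in EV.

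The gp130 family receptors Il6st, Lifr and Osmr were called lower with both plasmids in edgeR, and only the Osmr calls were kept in all alternatives. The other member of this family, Il6ra, was not lower, and the ligands were mostly not called. Osmr, the specific chain for oncostatin M, had EV samples between 1331 and 1493 with a median of 1464. In gdf6Y, samples 1 to 5 had 1340.5, 1159, 1239, 1338 and 1129, and the del9 samples 1375, 1163, 1183, 1298 and 1146. Samples 2 and 5 were lowest in each group, and most samples of both plasmids lay below all EV samples. Osmr fell by 0.20 on the log2 scale in gdf6Y (SE 0.04, adjusted p = 4e-06 in edgeR, exact permutation p = 0.026) and by 0.21 in del9 (SE 0.03, adjusted p = 2.6e-07, exact permutation p = 0.0173), and both calls were kept in all alternatives. The difference between gdf6Y and del9 was 0.01 with an SE of 0.04.

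The common subunit Il6st had EV samples between 3399.9 and 3675 with a median of 3511. Samples 1 to 5 of gdf6Y had 3395, 3155, 3118, 3367 and 2891, all below every EV sample, and the del9 samples had 3399, 3291, 3250.2, 3412 and 3101. It fell by 0.14 in gdf6Y (SE 0.03, adjusted p = 0.00017 in edgeR, exact permutation p = 0.00433) and by 0.09 in del9 (adjusted p = 0.0171, exact permutation p = 0.00866). Both calls were lost with a correction for gene length, and the del9 call also without EV sample 1 or 4 or del9 sample 3 or 5 (adjusted p of up to 0.142 and 0.533). Il6st has 15529 bases of annotated exon, the most of the 36 members.

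Lifr, the receptor chain for LIF that lies 215.644 kb from Osmr on chromosome 15, had EV samples between 390.2 and 539 with a median of 522. The gdf6Y samples 1 to 5 had 474, 375, 426, 473 and 395, and the del9 samples 468, 410.0, 404, 500.5 and 358. All samples of both plasmids were below the EV median, and the groups overlapped. The log2 fold change was -0.20 in gdf6Y (adjusted p = 0.00283 in edgeR, exact permutation p = 0.0736) and -0.21 in del9 (adjusted p = 0.000938, exact permutation p = 0.0823). Neither held with DESeq2 or with a filter on low counts (adjusted p of up to 0.104 and 0.0792), and the first was lost without gdf6Y sample 2 and the second without del9 sample 5 and with robust empirical Bayes. With the correction for gene length the fold change in gdf6Y was -0.15 (adjusted p = 0.0609), and with the sample number as a block in addition it was -0.12 in gdf6Y (0.0992) and -0.13 in del9 (0.0668). Lifr has 13795 bases of annotated exon.

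Il6ra, the specific chain for IL-6, was at 386 ± 27.6 (SD, n = 6) in EV, 399 ± 13.2 (n = 5) in gdf6Y and 427 ± 24.3 (n = 5) in del9, and Lif at 281 ± 28.3, 289 ± 34.1 and 317 ± 46.9. Both rose in del9 against EV (0.15 with adjusted p = 0.041 and 0.18 with adjusted p = 0.0386 in edgeR), and each call was lost in 14 of 22 alternatives (adjusted p of up to 0.182 for Il6ra and 0.536 for Lif). Among these were the fits without EV sample 1, 3 or 6 or del9 sample 2 or 5 for either gene, and without EV sample 4 or del9 sample 3 for Il6ra. The ligands Il6, at 45.7 ± 6.77, 48.1 ± 7.38 and 44.6 ± 7.45, and Il11, at 74.9 ± 6.14, 73 ± 6.67 and 82.3 ± 5.36, were not called. The IL-4 and IL-13 receptor chains were not called either: Il4ra was at 404 ± 49.9, 382 ± 34.1 and 378 ± 31, and Il13ra1 at 1540.2 ± 63.5, 1535 ± 62.3 and 1478 ± 54.1. The remaining members were at or near 0: no read was counted on Cxcl14, 1 read in all on Cxcl16, 6 on Ccl11, 9 on Cxcl2, 10 on Csf3, 19 on Csf2, 23 on Cxcl5, 70 on Ccl20 and 93 on Csf1r. None of these was called, and differences of ordinary size were not detectable at so few reads.

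Genes of the connected pathways, listed by symbol, were read from the same fits. Those called all had a mean of at least 10 reads. Of all genes at that level, 3.5% rose and 7.02% fell in gdf6Y against EV. In del9 against EV, 9.97% rose and 8.25% fell. Between gdf6Y and del9, 0.969% were higher and 0.834% lower. Of 15 JAK-STAT genes, 14 were tested, and 3 fell in gdf6Y against EV (Stat2, Stat3 and Pias3), none was called in gdf6Y against del9 (2 at an unadjusted p below 0.05, and 0 with DESeq2), and Stat2 and Stat3 were among the genes that fell in del9 against EV. Stat2, which carries interferon signals, was at 2452 ± 244 (SD, n = 6) in EV, 2063 ± 151 (n = 5) in gdf6Y and 2010.3 ± 134 (n = 5) in del9. Of 20 NF-kappa B genes, 1 rose and 3 fell in gdf6Y against EV, none was called in gdf6Y against del9 (3 at an unadjusted p below 0.05, and 0 with DESeq2), and 3 rose and 3 fell in del9 against EV. The inhibitor Nfkbia rose by 0.17 on the log2 scale in gdf6Y (adjusted p = 0.000169 in edgeR). Bcl3, a nuclear partner of NF-kappa B, fell by 0.32 in both (adjusted p = 5.05e-05 and 1.68e-05). Nfkbiz fell by 0.19 and 0.18 (0.00689 and 0.00815).

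Interferon-stimulated genes stood beside Cxcl10 and Ccl5 in both comparisons against EV. Of 20, some of which, such as Stat2, are also in the JAK-STAT list, 12 fell in gdf6Y and 15 in del9, and none rose. Of all genes with a mean of at least 10 reads, 7.02% and 8.25% fell in these comparisons. All of these are calls of edgeR, and no permutation test was run on this list. The Cxcl10 and Ccl5 calls themselves did not hold with DESeq2. None was called between gdf6Y and del9 in edgeR, where 0 had an unadjusted p below 0.05, nor with DESeq2. Of all genes at that read level, 0.969% were higher and 0.834% lower there in edgeR. At shares this low, no call in a list of 20 does not set these genes apart. Ifit3, an antiviral effector, went from 1184 ± 113 in EV to 879.9 ± 68.4 in gdf6Y and 881 ± 95.3 in del9. Rsad2, another antiviral enzyme, went from 2290.1 ± 217 to 1750.5 ± 141 and 1793 ± 143. The median log2 fold change of the list was -0.19 in each comparison against EV and 0.016 between gdf6Y and del9, where the median of all genes was close to 0.

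Of 48 further chemokine and cytokine receptor genes, 15 had no read in any sample, among them Ccr2, Cxcr3 and Cxcr4, which bind some of the chemokines described above. A mean of at least 10 reads was reached by 17. In gdf6Y against EV, Ackr3 rose and Il18rap fell, where 3.5% of all genes at that level rose and 7.02% fell. In gdf6Y against del9 Il18rap was lower, where 0.834% of those genes were. In del9 against EV Ackr3, Il17rc and Il18rap rose, where 9.97% did.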

How the data were processed

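RNA of TM4 cells was sequenced from strand-specific libraries of poly(A) RNA that carry unique molecular identifiers. The authors extracted the identifiers, aligned the reads with STAR 2.7.10a to GRCm39, removed PCR duplicates with UMI-tools and deposited whole-number counts per gene from featureCounts 2.0.3, leaving out reads that map to several places or overlap several genes. The counts are not normalized. Depth was 21486850 to 26444903 counts per sample, and depth and the number of samples limit the precision.

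Groups and sample numbers came from the labels. Symbols, positions and exon lengths were read from GENCODE (GRCm39, another release than the one used for counting), where 56017 of 56748 identifiers were found. The members, the lists of related genes and the tests were chosen with earlier results of these data known. Counts were tested with edgeR 4.0.16 in R 4.3.3 (TMM, quasi-likelihood test, 2 groups per model, no covariates, genes with at least 1 read in any sample of the comparison), after the script was tested on simulated counts. Adjusted p-values follow Benjamini and Hochberg over all genes tested. Standard errors of log2 fold changes come from the test statistic. Those from the spread between samples are printed for Ccl2 only. The plot of differences between groups draws them for every member with a mean of at least 10 reads. The 2 kinds also differed for members where only the first is printed. In gdf6Y against EV, the first was 0.07 and the second 0.16 for Cxcl1, and 0.027 and 0.019 for Csf1. Members called in any comparison with a mean of at least 10 reads were named with every sample's value, at most 14 of them by adjusted p, the others by group means. Up to 4 called genes were named per related list. Il18r1 and Il1rl2, outside that rule, were added after their values were seen.

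The alternatives were DESeq2 1.42.0, edgeR with the size factors of DESeq2 or with total counts, filterByExpr, a mean of at least 10 counts, all 3 groups in one model, the sample number as a block, and each sample left out in turn. Robust empirical Bayes, edgeR 4's dispersion estimate and a correction for exon length, alone or with the block, were added after the data were seen, as were the alternatives for interferon-stimulated genes. Exact permutation tests were done with scipy 1.17.1. Some genes of the context lists are not reported here by name.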

Additional observations from a re-analysis of the deposited data

How the results depend on the processing

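No member's call changed direction in any alternative. The number of members called moved by more than 1.5 times as follows. In gdf6Y against EV, where 12 were called, DESeq2 called 6, filterByExpr 7, a mean of at least 10 counts 7 and robust empirical Bayes 7. In del9 against EV, where 15 were called, they called 7, 8, 8 and 7. In gdf6Y against del9, where 3 were called, the length correction called 5, the replicate block 6 and both together 6. Leaving out 1 sample at a time gave 10 to 12, 10 to 15 and 3 to 6 members in the same order. Of the related lists, in gdf6Y against EV filterByExpr called 1 JAK-STAT gene in place of 3, and DESeq2 and filterByExpr each called 1 further receptor gene in place of 2. In gdf6Y against del9 the replicate block called 1 JAK-STAT and 1 NF-kappa B gene in place of 0. The filters test fewer genes; otherwise the cause was not tested. Over all genes, 155 rose and 106 fell in gdf6Y against del9, which became 48 and 33 with DESeq2, 26 and 19 with filterByExpr, and 289 and 372 with the replicate block. In gdf6Y against EV, 448 and 890 became 525 and 755, 456 and 725, and 912 and 1202 in that order. In del9 against EV, 1263 and 1162 became 1123 and 928, 1073 and 1053, and 1548 and 1459. With robust empirical Bayes they were 495 and 817 in gdf6Y against EV and 1314 and 1064 in del9 against EV. A mean of at least 10 counts gave 457 and 731, and 1043 and 1070, in the same order. The length correction gave 160 and 135 in gdf6Y against del9, and 273 and 371 with the block. With 1 sample left out, 235 to 718 rose and 559 to 1033 fell in gdf6Y against EV. These ranges were 866 to 1373 and 826 to 1342 in del9 against EV, and 94 to 243 and 66 to 198 in gdf6Y against del9.

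Samples of the same number deviated together only in part. Over 12584 genes, the correlation of their deviations from the group means was 0.0409 to 0.195 in gdf6Y and EV, 0.0994 to 0.163 in gdf6Y and del9, and -0.051 to 0.155 in del9 and EV, and 3, 4 and 1 of the 5 pairs were best matched by number. It was above 0.1 in 4, 4 and 2 of the 5 pairs and in no comparison in all 5, so the numbers were not taken as a pairing, although samples that share a number were partly alike. With the replicate block, 13 members were called in gdf6Y against EV (Tslp in addition), 6 in gdf6Y against del9 (Ccl2, Ccl5 and Csf1 in addition, with adjusted p of 0.00246, 0.00247 and 0.000247) and 13 in del9 against EV (without Lif and Il6ra). In 7 of the 27 members with a mean of at least 10 reads, the samples numbered 2 and 5 were the lowest in all 3 groups. The same count was not made over all genes, so the pattern cannot be called particular to these members. What those samples share was not tested.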

Other observations

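Il1rl1 lies in a cluster of IL-1 receptor genes on chromosome 1, all on the plus strand, and these values were chosen after they were seen. Il18r1 begins 0.136 kb after the end of Il1rl1 and Il18rap 14.507 kb after the end of Il18r1 (GRCm39). Il18r1, the chain of the IL-18 receptor that binds the ligand, had a normalized count of 0.662 ± 0.793 (SD, n = 6) in EV, 1.22 ± 0.854 (n = 5) in gdf6Y and 0.588 ± 0.537 (n = 5) in del9. Il18rap, its accessory chain, was at 973 ± 58 in EV, 864 ± 36.3 in gdf6Y and 1052 ± 83.1 in del9. Every gdf6Y sample of Il18rap was below every EV and every del9 sample, as for Il1rl1. Il18rap fell by 0.17 on the log2 scale in gdf6Y against EV (adjusted p = 0.00101 in edgeR) and by 0.28 against del9 (adjusted p = 3.81e-08), and it rose by 0.11 in del9 against EV (adjusted p = 0.0307). Upstream of Il1rl1, Il1rl2 was at 224 ± 17.1, 216 ± 12 and 200.5 ± 18.8 and Il1r1 at 419 ± 21, 404 ± 27.5 and 435 ± 21.7 in EV, gdf6Y and del9, with no call.

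Osmr and Lifr are direct neighbours on chromosome 15, with no protein-coding gene between them, and were called lower than EV with both plasmids in edgeR. The Osmr calls were kept in all alternatives, whereas the Lifr calls did not hold with DESeq2 or a filter on low counts. Ccl2, Ccl7 and Ccl11 are direct neighbours on chromosome 11 at gaps of 8.252 and 10.266 kb, Ccl8 lies 52.225 kb beyond Ccl11 with 1 protein-coding gene between them, and of these Ccl11 had 6 reads over the 16 samples while Ccl2 had 48617.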
